A study of Callithrix jacchus with 4 samples.

Results

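The transcripts described here encode 9 feedback inhibitors of the ERK pathway: the MAP kinase phosphatases DUSP1, DUSP4, DUSP5 and DUSP6, the Sprouty proteins SPRY1, SPRY2 and SPRY4, and the Sprouty-related proteins SPRED1 and SPRED2. They were chosen by gene symbol for their known role, with earlier results of these data already known. All 9 have a row among the 35205 genes of the count table and were among the 16956 genes tested. RNA-seq had been carried out on 2 libraries from FMR1 mutant common marmosets (Callithrix jacchus) made with CRISPR/Cas9 and on 2 libraries from wild-type marmosets, all at postnatal day 5. FMR1 encodes FMRP, an RNA-binding protein whose loss causes fragile X syndrome in humans. The samples are described as forebrain, taking in cortex, striatum and hippocampus, while each library is labelled only as brain. The kind of FMR1 mutation, the sex of the animals and whether each library came from its own animal are not given in the labels, so the p-values reflect the spread among these libraries, which may be technical.

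When a growth factor binds its receptor tyrosine kinase, adaptors recruit exchange factors to Ras, and Ras activates the Raf, MEK and ERK kinases in turn. Active ERK switches on rapid target genes, and among its targets are inhibitors that then dampen the pathway. The phosphatases remove phosphate from MAP kinases, whereas Sprouty and Spred proteins act higher up, between the receptor and Raf. Several of these transcripts are short-lived and rise after ERK activation, and those are widely used as a readout of ERK signalling. In neurons several of the 9 also follow synaptic activity. The comparison asked whether the 9 transcripts differed between FMR1 mutant and wild-type brain at this age.

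Total counts were 13153036 and 13455702 in the mutant libraries and 13256200 and 12331639 in the wild-type libraries. Levels are given in CPM, counts scaled by TMM-adjusted library size. Each log2 fold change puts mutant over wild-type and comes from the quasi-likelihood test of edgeR, its p adjusted by Benjamini-Hochberg over all genes tested. FMR1 RNA itself, at 81.1 and 119 CPM in the mutant libraries against 86.3 and 78.6 CPM in the wild-type libraries, overlapped between groups (log2 fold change 0.28, SE 0.15, adjusted p = 0.445) and is no check of the genotype, since a small mutation need not lower its RNA. Wild-type replicate 1 stood apart by markers of the thalamus, with TCF7L2 at 9.01 and 8.98 CPM in the mutant libraries against 96.0 and 11.3 CPM in wild-type replicates 1 and 2. The summed level of 8 neuronal markers was 6585 to 6876 CPM in the mutant libraries and 6265 to 6339 CPM in the wild-type libraries. Without STMN2, which took the most counts of the 8, it was 3684 to 3817 CPM in the mutant libraries and 3705 to 4108 CPM in the wild-type libraries, and 5 of the 8 markers had a negative log2 fold change. The hindbrain markers HOXB3 and HOXB5 had no count in any library.

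None of the 9 transcripts passed an adjusted p of 0.05, by edgeR, DESeq2 or limma-voom, where 2.23% of all genes tested passed by edgeR, 1.57% lower and 0.661% higher in the mutant libraries. The lowest values relative to wild-type were those of 3 of the phosphatases: DUSP5 (log2 fold change -1.06), DUSP1 (-0.74) and DUSP6 (-0.52). At an unadjusted p under 0.05, 4 of the 9 were lower, these 3 and SPRY4, against 13.4% of all genes tested in either direction; DESeq2 had 3 and limma-voom 4 at that level. Fitted by edgeR without a filter on low counts, DUSP1 (adjusted p = 0.00107), DUSP6 (0.0120) and DUSP5 (0.0498) passed. Of the 9, 7 had a negative and 2 a positive log2 fold change, with a median of -0.23, where the median of all genes tested was 0.00 (-0.004) and 50.7% were negative. In 6 of the 9 both mutant libraries lay below both wild-type libraries, as did 21.8% of all genes tested, and in 0 of the 9 did both lie above (21.4% of all genes). The groups of the other 3 overlapped.

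**Figure D1:**
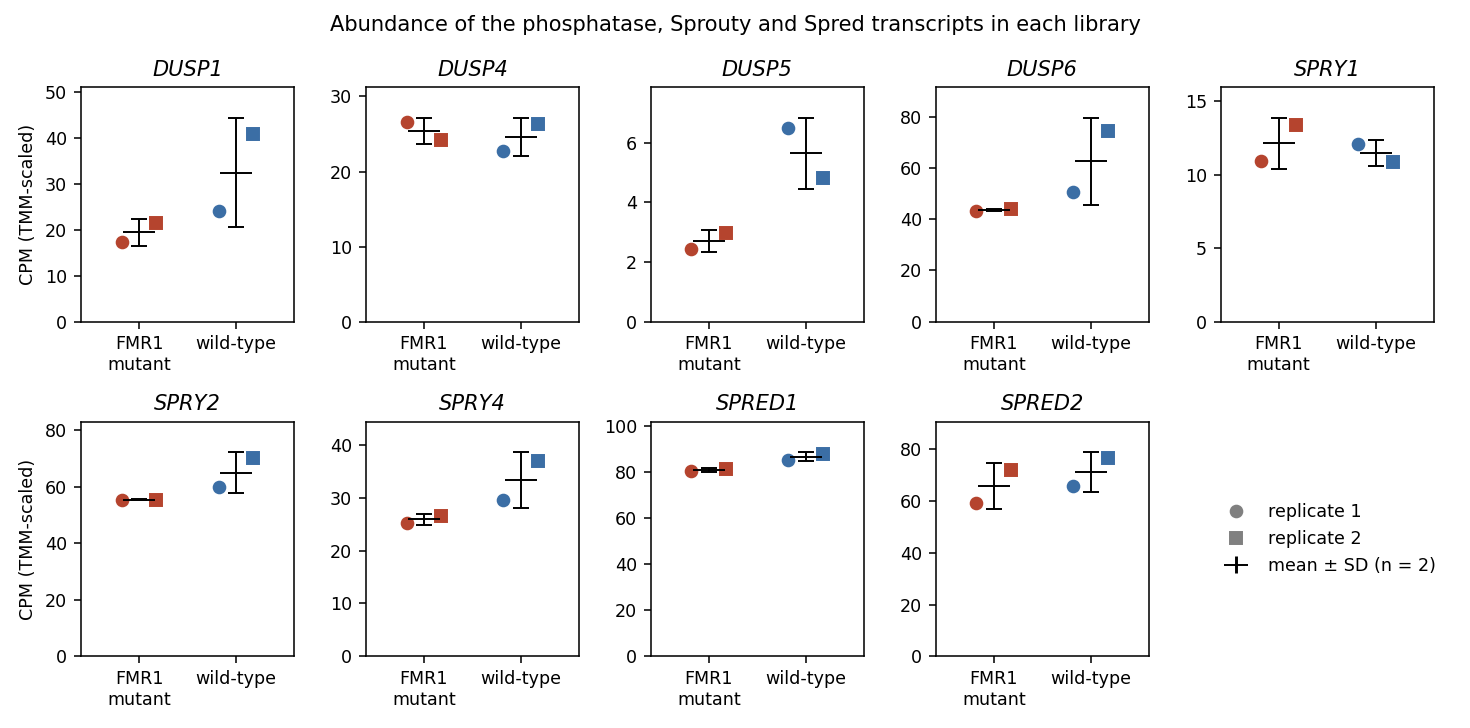
CPM of each transcript (vertical axes, each starting at 0) in the FMR1 mutant (red) and wild-type (blue) libraries, with circles for replicate 1, squares for replicate 2 and bars for the mean and SD of 2 libraries. DUSP1, DUSP6, SPRY2 and SPRY4 were highest in wild-type replicate 2, whereas DUSP5 was highest in wild-type replicate 1.

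DUSP6, a cytoplasmic phosphatase selective for ERK, was at 43.3 and 43.9 CPM in the mutant libraries, against 50.6 and 74.7 CPM in the wild-type libraries. The mutant libraries were nearly identical, both lay below wild-type, and wild-type replicate 2 stood well above replicate 1. Means were 43.6 ± 0.452 CPM in mutant and 62.6 ± 17.0 CPM in wild-type libraries (SD, n = 2 each). DUSP6 thus had a log2 fold change of -0.52 (SE 0.15, 95% interval -0.84 to -0.20), at an adjusted p of 0.0794. It was -0.78 without wild-type replicate 1 and -0.21 without wild-type replicate 2, so its size rests on which wild-type library is kept. Where 1 library of a group is left, that group's spread cannot be seen, so the p-values of such fits do not measure it.

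DUSP1, a nuclear phosphatase that acts on ERK, p38 and JNK and is itself an immediate early gene, was at 17.3 and 21.6 CPM in the mutant libraries and at 24.1 and 41.0 CPM in the wild-type libraries. The groups did not overlap, but mutant replicate 2 and wild-type replicate 1 were separated by a log2 ratio of only -0.16, whereas the wild-type libraries differed from each other by 0.77. Means were 19.5 ± 3.01 CPM in mutant and 32.5 ± 11.9 CPM in wild-type libraries (SD, n = 2 each), a log2 fold change of -0.74 (SE 0.23, 95% interval -1.23 to -0.25, adjusted p = 0.137). It was -1.07 without wild-type replicate 1 and -0.30 without wild-type replicate 2. With all 4 libraries DUSP1 passed with robust = FALSE (adjusted p = 0.0436), a fit that shrinks every gene's spread to the same degree.

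DUSP5, a nuclear phosphatase selective for ERK, was the least counted of the 9, with 32 and 40 counts in the mutant libraries and 86 and 59 counts in the wild-type libraries. These correspond to 2.44 and 2.97 CPM in mutant and 6.49 and 4.80 CPM in wild-type libraries. The groups did not overlap, and unlike DUSP1 and DUSP6 it was highest in wild-type replicate 1. The 95% Poisson intervals of the nearest libraries, which cover counting error only, did overlap, at 28.6 to 54.5 counts in mutant replicate 2 and 44.9 to 76.1 counts in wild-type replicate 2. Between the groups DUSP5 stood at -1.06 on the log2 scale (SE 0.32, 95% interval -1.72 to -0.40), at an adjusted p of 0.0805. It was -1.26 without wild-type replicate 2 and -0.83 without wild-type replicate 1.

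DUSP4, a nuclear phosphatase related to DUSP1, had groups that were not separated. Its level was 26.6 and 24.2 CPM in the mutant libraries and 22.8 and 26.4 CPM in the wild-type libraries, and the groups overlapped. The log2 fold change was 0.05 (SE 0.16, 95% interval -0.28 to 0.38, adjusted p = 0.947), and it was -0.05 without wild-type replicate 1 and -0.02 without mutant replicate 1. The difference between DUSP4 and the other phosphatases was not tested. Summed over the 4 phosphatases, the level was 89.7 and 92.7 CPM in the mutant libraries, against 104 and 147 CPM in the wild-type libraries.

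Among the Sprouty transcripts, SPRY4, which restrains Ras activation below growth factor receptors, was at 25.2 and 26.6 CPM in the mutant libraries and 29.6 and 37.0 CPM in the wild-type libraries. Both mutant libraries were lower, and wild-type replicate 2 was again the highest. The log2 fold change was -0.36 (SE 0.16, 95% interval -0.68 to -0.04, adjusted p = 0.293), with -0.52 without wild-type replicate 1 and -0.19 without wild-type replicate 2.

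SPRY2, which also binds the ubiquitin ligase CBL, was at 55.5 and 55.3 CPM in the mutant libraries, against 59.9 and 70.1 CPM in the wild-type libraries. The groups did not overlap, but the mean gap was slight (log2 fold change -0.23, SE 0.13, 95% interval -0.50 to 0.04, adjusted p = 0.475), and it was -0.11 without wild-type replicate 2. SPRY1, a Sprouty inhibitor of the same step, was at 10.9 and 13.4 CPM in the mutant libraries and 12.1 and 10.8 CPM in the wild-type libraries. Its groups overlapped, with a log2 fold change of 0.08 (SE 0.21, 95% interval -0.34 to 0.51, adjusted p = 0.924) that was -0.07 without mutant replicate 2.

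The log2 fold changes of both Spred transcripts lay within 1 SE of 0. SPRED1, which brings the Ras inhibitor neurofibromin to the membrane and is mutated in human Legius syndrome, was at 80.3 and 81.3 CPM in the mutant libraries and 85.2 and 87.9 CPM in the wild-type libraries. The groups did not overlap, yet the gap was small: SPRED1 had a log2 fold change of -0.10 (SE 0.12, adjusted p = 0.804), with 95% bounds of -0.35 and 0.15. SPRED2, its close relative, was at 59.4 and 72.1 CPM in the mutant libraries, against 65.8 and 76.5 CPM in the wild-type libraries. Its groups overlapped (log2 fold change -0.11, SE 0.13, 95% interval -0.39 to 0.16, adjusted p = 0.789), and the value was 0.02 without mutant replicate 1 and 0.00 (0.0015) without wild-type replicate 2.

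**Figure D2:**
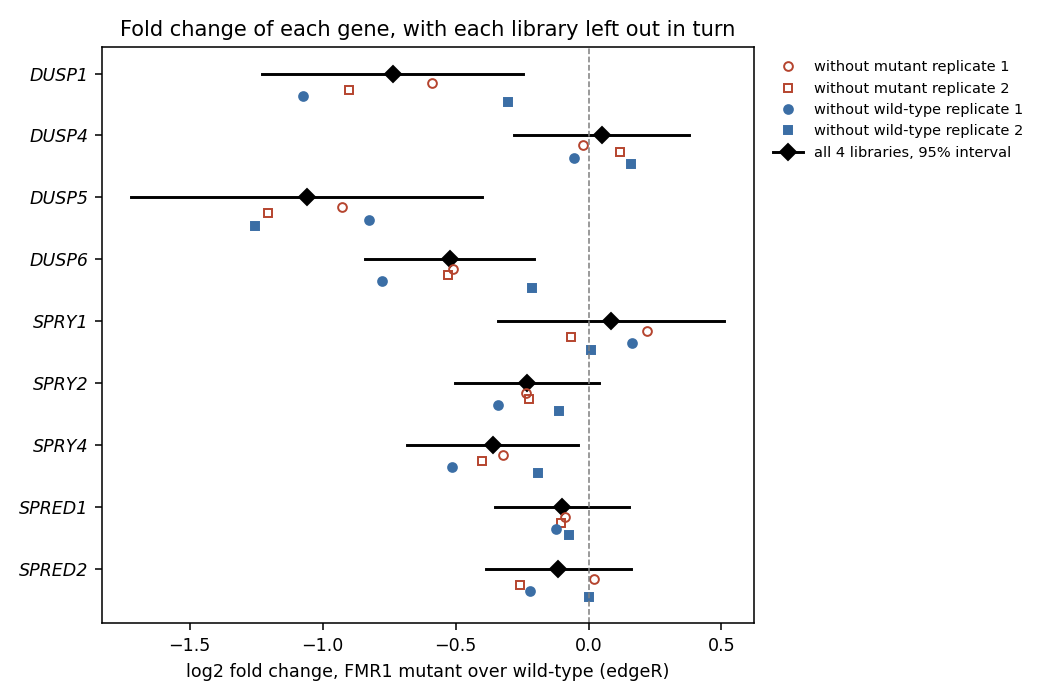
Log2 fold change, mutant over wild-type (horizontal axis), of each transcript from all 4 libraries (black diamond, with its 95% interval) and with each library left out in turn (open red symbols for a mutant library, filled blue symbols for a wild-type library). DUSP1, DUSP5, DUSP6, SPRY2, SPRY4 and SPRED1 stayed below 0 in all 4 of these fits, and DUSP6 ranged from -0.78 to -0.21.

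Much of the spread lay within the wild-type group. Of the 9 transcripts, 6 were highest in wild-type replicate 2 and 1 in each of the other libraries, while 24.9% of all genes tested were highest in wild-type replicate 2. Of the 7 transcripts with a negative log2 fold change, 6 were further below wild-type replicate 2 than below wild-type replicate 1, the exception being DUSP5. Against wild-type replicate 1 the log2 ratio of DUSP6 was -0.23 and -0.21 in mutant replicates 1 and 2, and against wild-type replicate 2 it was -0.79 and -0.77. In SPRY4 the log2 ratios lay between -0.23 and -0.15 against wild-type replicate 1 and between -0.56 and -0.48 against wild-type replicate 2. The median over the 9 was -0.34 without wild-type replicate 1, the library with the thalamic markers, and -0.11 without wild-type replicate 2.

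**Figure D3:**
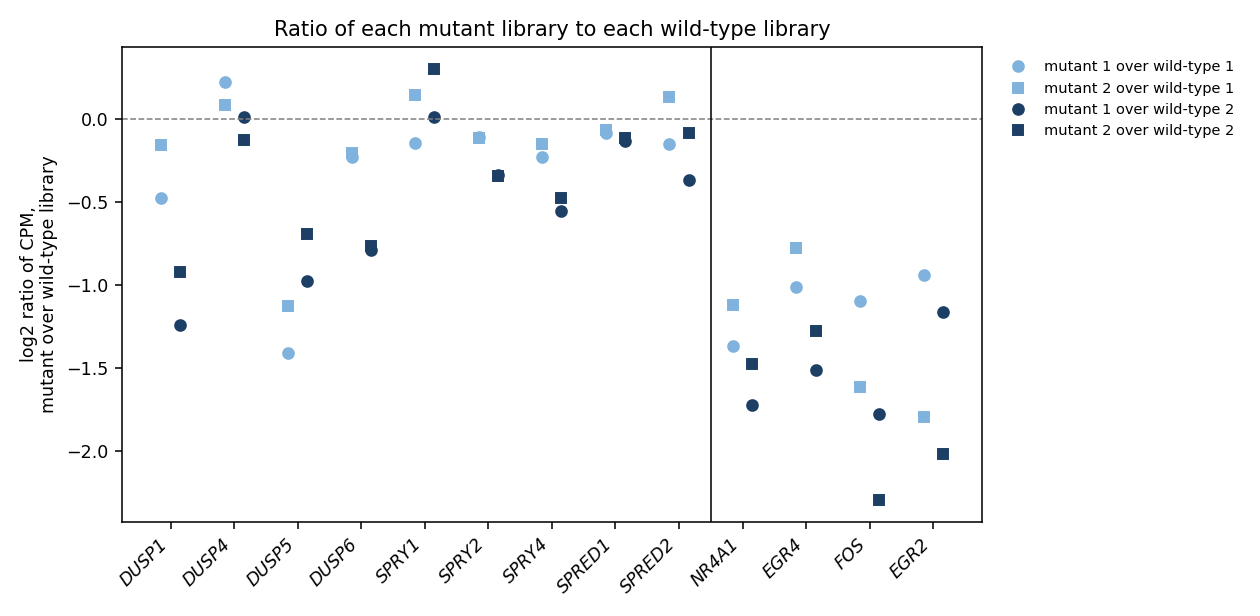
Log2 ratio of CPM (vertical axis) of each mutant library over each wild-type library, in light blue against wild-type replicate 1 and dark blue against wild-type replicate 2, for the 9 feedback inhibitors (left of the line) and the 4 rapid target genes with the smallest p (right of it). All 4 ratios were negative for DUSP1, DUSP5, DUSP6, SPRY2, SPRY4 and SPRED1 and for each of the 4 rapid targets, and those of DUSP1, DUSP6, SPRY2 and SPRY4 were further below 0 against wild-type replicate 2.

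Among the genes that ERK, SRF and CREB switch on within minutes, 22 were tested, with a median log2 fold change of -0.51. At an adjusted p under 0.05, 7 fell and 0 rose. By sign, 14 were negative and 8 positive, and 15 had an unadjusted p under 0.05 in either direction (13.4% of all genes tested). Both mutant libraries lay below both wild-type libraries in 13 (21.8% of all genes tested) and above them in 4 (21.4%). NR4A1, a nuclear receptor, was at 23.0 and 27.3 CPM in the mutant libraries and 59.4 and 75.9 CPM in the wild-type libraries (log2 fold change -1.43, SE 0.15, adjusted p = 9.20e-08). The zinc finger factors EGR4 (-1.16, SE 0.19) and EGR2 (-1.42, SE 0.31) and the AP-1 subunit FOS (-1.71, SE 0.24) fell as well. Among genes of the list that did not pass, IER3 (0.50, SE 0.17, adjusted p = 0.136) and MYC (0.485, SE 0.16, adjusted p = 0.129) lay higher in both mutant libraries. Of these 22 genes, 14 were, like DUSP1 and DUSP6, highest in wild-type replicate 2, and the summed level of the list was 618 and 645 CPM in the mutant libraries, against 832 and 1121 CPM in wild-type replicates 1 and 2. Leaving out mutant replicate 1 kept 4 of the 22 past the threshold and leaving out mutant replicate 2 kept 3, where FOS (adjusted p = 0.0516) and EGR2 (adjusted p = 0.159) did not pass. EGR2 did not pass by DESeq2 either (0.0603). That several of these rapid genes are lower was already known when the lists were drawn up and is no independent support.

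Among slower ERK targets no gene passed. Of 7 such genes, among them the ETS factors ETV1, ETV4 and ETV5, 0 passed by edgeR and 1 had an unadjusted p under 0.05, with a median log2 fold change of -0.12. That gene was CCND1, cyclin D1 (28.6 and 30.0 CPM in mutant and 40.4 and 34.0 CPM in wild-type libraries, log2 fold change -0.35, SE 0.15, adjusted p = 0.290). ETV5, a factor commonly read beside DUSP6 and SPRY4, was at 110 and 104 CPM in the mutant libraries and 118 and 124 CPM in the wild-type libraries (-0.18, SE 0.12, adjusted p = 0.562). Of 10 glucocorticoid-induced genes, a class to which DUSP1 also belongs, 0 passed by edgeR and the median was -0.02. PDK4, a mitochondrial kinase, was lowest at -0.69 (SE 0.23, adjusted p = 0.112) and was -0.86 without wild-type replicate 1. The transcription factor KLF9 was at -0.26 (SE 0.12, adjusted p = 0.324).

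The other inhibitors of the pathway gave no call by edgeR. Of 6 other MAP kinase phosphatases, 0 passed, with 2 at an unadjusted p under 0.05 and in opposite directions. DUSP9, a cytoplasmic ERK phosphatase, was at 13.0 and 13.8 CPM in the mutant libraries and 6.49 and 8.96 CPM in the wild-type libraries (log2 fold change 0.80, SE 0.22, adjusted p = 0.0514). It thus lay higher in both mutant libraries. It passed with upper quartile scaling (adjusted p = 0.0488), at a mean of at least 1 CPM (0.0463) and without a low-count filter (0.0226), among other settings. It did not pass by DESeq2 (0.256) or limma-voom (0.0590), with robust = FALSE (0.0598) or with RLE scaling (0.0502). Its log2 fold change was 0.58 without wild-type replicate 1 and 1.05 without wild-type replicate 2. DUSP16, which acts mainly on JNK, was at 12.3 and 13.9 CPM in the mutant libraries and 20.1 and 19.5 CPM in the wild-type libraries (-0.60, SE 0.18, adjusted p = 0.0839). Of 17 other inhibitors of Ras and receptor signalling, 0 passed and 5 had an unadjusted p under 0.05, with a median of -0.08. The lowest p among them were those of LRIG1, which promotes receptor breakdown (-0.34, SE 0.12, adjusted p = 0.172), and of the ubiquitin ligase CBL (-0.34, SE 0.14, adjusted p = 0.245).

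Upstream of these inhibitors, 19 growth factor ligands were tested and 0 passed by edgeR, with 2 at an unadjusted p under 0.05. They were FGF1 (13 and 20 counts in the mutant libraries against 48 and 40 in the wild-type libraries, log2 fold change -1.47, SE 0.42, adjusted p = 0.0554) and IGF1 (-0.28, SE 0.12, adjusted p = 0.271). FGF1 passed without a low-count filter (adjusted p = 0.0291), but not by DESeq2 (0.361), limma-voom (0.0783) or with robust = FALSE (0.0675). With a wild-type library left out, IGF2 moved in opposite directions, at -0.63 without wild-type replicate 1 and 0.71 without wild-type replicate 2. TGFA was at -1.02 without wild-type replicate 2. Of 17 receptor tyrosine kinases, 1 fell and 1 rose (median -0.22). ERBB3, a neuregulin receptor, was at 16.9 and 15.9 CPM in the mutant libraries and 28.1 and 27.8 CPM in the wild-type libraries (-0.77, SE 0.17, adjusted p = 0.00643). MET, the receptor of hepatocyte growth factor, was at 47.7 and 49.3 CPM in mutant and 25.9 and 37.0 CPM in wild-type libraries (0.63, SE 0.15, adjusted p = 0.0225).

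Of 28 adaptors, Ras, Raf, MEK and ERK genes, 2 fell and 0 rose, with a median of -0.09. They were the scaffold KSR2, at 23.6 and 30.3 CPM in mutant and 38.5 and 46.9 CPM in wild-type libraries (-0.66, SE 0.16, adjusted p = 0.0157), and the docking protein GAB1, at 16.8 and 20.3 CPM in mutant and 30.6 and 28.2 CPM in wild-type libraries (-0.66, SE 0.17, adjusted p = 0.0231). Neither passed when mutant replicate 1 was left out (adjusted p = 0.296 and 0.307) or by DESeq2 (0.0649 and 0.101). KSR2 also missed it without wild-type replicate 2 (0.133) and GAB1 without wild-type replicate 1 (0.101). ERBB3 missed the threshold when mutant replicate 2 was left out (adjusted p = 0.0815), while MET passed only without wild-type replicate 2 (adjusted p = 0.000303) among the fits that left out 1 library, and not by DESeq2 (0.0829). These values concern RNA, and the phosphorylation of ERK was not measured.

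**Figure D4:**
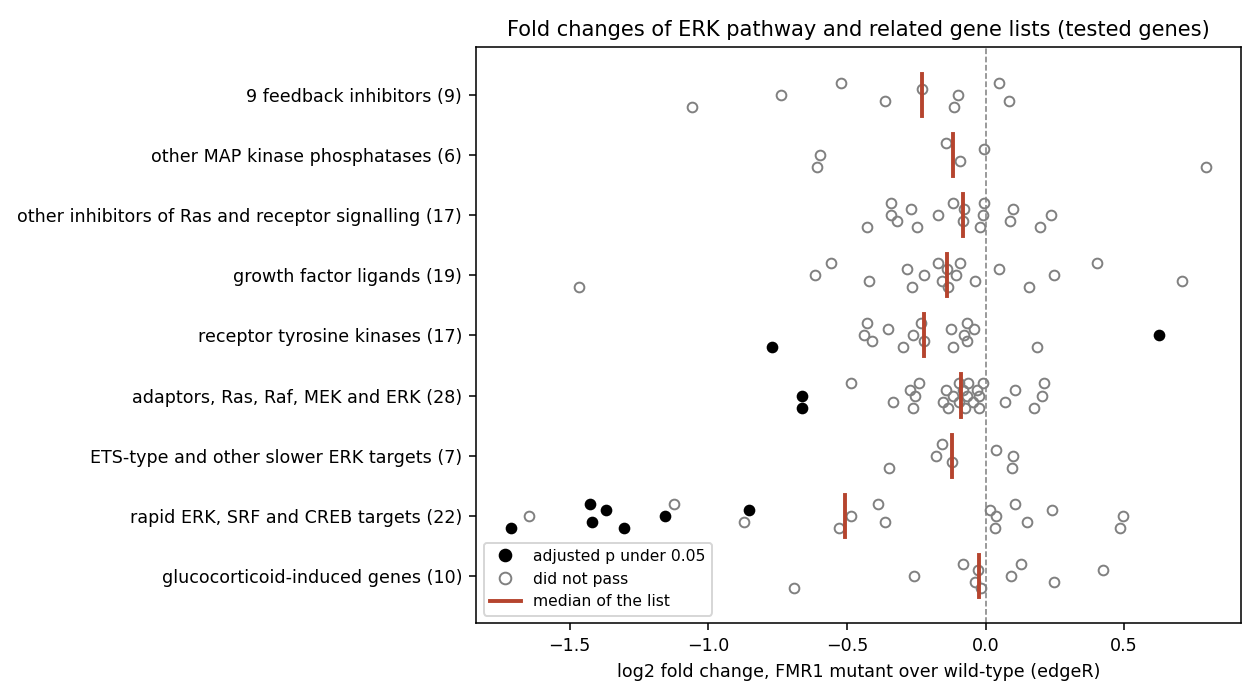
Log2 fold change, mutant over wild-type (horizontal axis), of each tested gene in the 9 feedback inhibitors and 8 related lists (rows, with the number tested in brackets); filled points passed an adjusted p of 0.05, and red bars mark each list's median. The median was -0.23 for the 9 inhibitors, -0.51 for the rapid targets and between -0.22 and -0.02 for the other lists.

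Cell type markers also differed between the groups. The summed level of 10 markers of mature oligodendrocytes was 1396 and 1344 CPM in the mutant libraries and 3661 and 3583 CPM in the wild-type libraries, and all 10 fell. For 8 markers of oligodendrocyte precursors, cells that depend on growth factor receptors, it was 725 and 770 CPM in the mutant libraries against 937 and 942 CPM in the wild-type libraries (2 fell, 0 rose), for 8 astrocyte markers 3548 and 3893 against 5061 and 4885 CPM (2 fell, 0 rose), and for 8 microglial markers 131 and 89.7 against 170 and 182 CPM (3 fell, 0 rose). Markers of endothelium and pericytes were at 297 and 309 CPM in the mutant libraries and 319 and 347 CPM in the wild-type libraries, and 0 of 8 passed by edgeR, with 1 at an unadjusted p under 0.05. Of 8 neuronal markers, 1 fell and 0 rose. Of 3 thalamic and hindbrain markers tested, 0 passed by edgeR, and the summed level of the list was 26.6 and 27.7 CPM in the mutant libraries and 132 and 24.3 CPM in wild-type replicates 1 and 2. Of 6 blood markers, 3 have a row, at a summed 4.81 and 2.08 CPM in the mutant libraries and 2.34 and 1.22 CPM in the wild-type libraries, and the 1 tested did not pass. The glial sums were close between the wild-type libraries, though single markers differed. CNP was at 433 and 345 CPM and C1QA at 10.6 and 4.97 CPM in wild-type replicates 1 and 2. The summed level of the 9 feedback inhibitors was 356 and 429 CPM in those libraries. For single inhibitors, the log2 gap between those libraries ran from 0.05 in SPRED1 to 0.77 in DUSP1. In bulk tissue, fewer cells of a type and less RNA per cell cannot be told apart, and the part of the glial markers in the values of the feedback inhibitors was not tested.

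DUSP6 had the smallest p of the 9, and the genes with the most similar pattern were sought among 13651 other genes with a symbol and at least 1 CPM on average. Likeness was the mean absolute difference in log2 CPM, centred on each gene's mean over the 4 libraries. The nearest were HRK (0.0139), DIMT1 (0.022) and GRAP (0.0283). HRK was at 8.25 and 8.61 CPM in the mutant libraries and 9.81 and 14.3 CPM in the wild-type libraries. Its order of libraries was that of DUSP6, which follows from how it was chosen. Counts were low for DIMT1 (25 to 41 per library) and GRAP (13 to 21). The likeness rests on 4 libraries, and none of the 3 genes passed by edgeR (adjusted p = 0.306, 0.665 and 0.743).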

How the data were processed

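Per the labels' protocols, poly(A) RNA from TRIzol extracts, cleared of DNA, went into directional libraries. Trimmomatic 0.38 and STAR 2.7.10a are named in the submitters' processing notes. How reads were counted, whether strand was used, and which build and annotation served, was not given in the sources used here. Whole-number counts per gene, not normalized, were deposited by the authors, and the label of each library carries its column's name.

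Analysis used edgeR 4.0.16 (R 4.3.3) with filterByExpr at a minimum count of 10, TMM scaling, and the quasi-likelihood test with robust = TRUE on the 2 mutant and 2 wild-type libraries, at a Benjamini-Hochberg adjusted p of 0.05. The SE is the size of the log2 fold change divided by the square root of F. Replicates differed by more than sampling noise (chi-square per degree of freedom of 6.46 in mutant and 6.80 in wild-type libraries over genes with at least 10 counts). An exact permutation test of 2 against 2 cannot go below p = 0.333 and was not used. Alternatives were RLE and upper quartile scaling, DESeq2 1.42.0, limma-voom (limma 3.58.1), no low-count filter, robust = FALSE, a minimum mean of 1 CPM, a replicate block, an adjusted p of 0.1, and each library left out with the same genes kept.

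The 9 genes and the related lists were chosen with earlier results of these data known. Besides the 9, each list's passing genes are named, up to 4 by smallest p, or the 2 with the smallest p where fewer than 2 passed. Further genes were named after their values were seen: ETV1, ETV4, IER3, MYC, TCF7L2, IGF2, TGFA, STMN2, CNP, C1QA and the markers HOXB3 and HOXB5. On simulated counts for the same 16956 genes, recovery was 19.4% at a log2 change of 0.5, 73.1% at 1 and 89.4% at 2, and 6 of 127 calls were false. The simulation gave each gene the spread typical of its abundance, without the wider spread of single genes. These rates may therefore be too favourable for the real libraries. In the RefSeq annotation of assembly calJac240_pri, which need not be the authors' build, DUSP1, SPRY1, SPRY4 and SPRED1 each overlap 1 other gene, so reads may be shared there if strand was not used in counting.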

Additional observations from a re-analysis of the deposited data

How the results depend on the processing

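DUSP1, DUSP5, DUSP6, SPRY2, SPRY4 and SPRED1 kept a negative log2 fold change in all 12 refits, but calls depended on the setting. The number of the 9 called was 1 with robust = FALSE, 3 without a low-count filter (DUSP1 at -0.74, adjusted p = 0.00107; DUSP5 at -1.06, adjusted p = 0.0498; DUSP6 at -0.52, adjusted p = 0.0120), 2 at an adjusted p of 0.1 (DUSP5 at -1.06 and DUSP6 at -0.52), and 0 with RLE or upper quartile scaling, DESeq2, limma-voom or a mean of at least 1 CPM. With robust = FALSE the call was DUSP1 (-0.74). With 1 library left out the number called ran between 0 and 2, and the median over the 9 between -0.34 and -0.11. Ranges over those 4 fits were -1.07 to -0.30 for DUSP1, -0.05 to 0.16 for DUSP4, -1.26 to -0.83 for DUSP5, -0.78 to -0.21 for DUSP6, -0.07 to 0.22 for SPRY1 and -0.26 to 0.02 for SPRED2. DUSP4 was negative without mutant replicate 1 (-0.022) and wild-type replicate 1 (-0.054), SPRY1 without mutant replicate 2 (-0.067), and SPRED2 was positive without mutant replicate 1 (0.020) and wild-type replicate 2 (0.0015). Where 1 library of a group remained, it was assumed to vary like the others. Of all genes, 378 were called, against 244 by DESeq2, 633 without a filter, 624 at an adjusted p of 0.1, and between 163 and 562 with 1 library left out (163 and 220 without mutant replicates 1 and 2). The cause of these shifts was not tested.

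The labels number the replicates without saying what a number marks, and same-numbered libraries deviated together only weakly (r = 0.035 across genes), so the numbers were not taken as pairs. With the replicate block, 1 of the 9 was called, DUSP1 (-0.71, adjusted p = 0.0125), and 493 genes in all. DUSP9 (0.81, adjusted p = 0.0315) and FGF1 (-1.48, adjusted p = 0.0426) also passed with the replicate block. Among the 9, DUSP5 had the fewest counts and the widest SE (0.32).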
